A study of Mus musculus with 8 samples.

Results

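*Cdkn1a*, *Srsf3* and *Rab44* lie close together on mouse chromosome 17. In the authors' deposited gene table *Cdkn1a* shares BLM-enriched p53 regions with *Srsf3* and, at other sites, with *Rab44*. The 3 genes were chosen by name from the 1425 genes of that table, and 6 of the 915 deposited BLM-enriched regions were assigned to them. Peaks were taken within 50 kb of each transcription start site (TSS), whose position was implied by the middle of each assigned region minus its deposited distance. The organoids were alveolar organoids grown from AT2 cells, the surfactant-producing cells of the alveolus, which were sorted as EPCAM+ MHCII+ CD31- CD45- lung cells of wild-type mice and passaged in culture. They received DMSO (CTRL, 2 libraries) or 100 μM of bleomycin (BLM, 2 libraries), a drug that breaks DNA, for 24 h. Chromatin was fixed with formaldehyde and DSG and precipitated with a rabbit monoclonal antibody to p53 (ChIP-seq). The material came from 2 wild-type mice, and which libraries share a mouse is not given in the sources used here. Input libraries were not analysed here, and the lists measure no expression, so the AT2 label was not checked against marker genes.

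p53 is a transcription factor that is stabilised after DNA damage and binds response elements made of a pair of half-sites. *Cdkn1a* encodes p21, an inhibitor of cyclin-dependent kinases that stops the cell cycle and is among the best known p53 targets. *Srsf3* encodes an SR protein that takes part in splicing, and *Rab44* encodes a large, atypical Rab GTPase.

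RefSeq promoter windows on GRCm38.p6 were matched for 2 of the 3 genes, *Cdkn1a* with 2 annotated starts and *Srsf3* with 1, and *Rab44* had no entry. The upstream *Cdkn1a* start lies 2790 bp before the downstream one. The 250 bases before each start are shown because they differ in whether they hold a p53 site, and all are on the plus strand. In the upstream *Cdkn1a* window capitals mark a p53 full site, in the downstream window they mark the GC boxes (GGGCGG), and the *Srsf3* window held neither.

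Cdkn1a upstream start, chr17:29090729-29090978: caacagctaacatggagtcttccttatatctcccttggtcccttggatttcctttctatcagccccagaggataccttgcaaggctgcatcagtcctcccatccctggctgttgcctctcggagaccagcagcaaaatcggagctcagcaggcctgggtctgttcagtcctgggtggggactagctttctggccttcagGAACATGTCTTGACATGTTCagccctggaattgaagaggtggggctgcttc
Cdkn1a downstream start, chr17:29093519-29093768: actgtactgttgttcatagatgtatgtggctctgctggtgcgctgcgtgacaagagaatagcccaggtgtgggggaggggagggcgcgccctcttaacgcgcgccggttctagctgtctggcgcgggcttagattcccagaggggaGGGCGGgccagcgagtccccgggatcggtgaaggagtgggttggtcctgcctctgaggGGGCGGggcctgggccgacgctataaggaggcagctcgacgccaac
Srsf3 start, chr17:29032410-29032659: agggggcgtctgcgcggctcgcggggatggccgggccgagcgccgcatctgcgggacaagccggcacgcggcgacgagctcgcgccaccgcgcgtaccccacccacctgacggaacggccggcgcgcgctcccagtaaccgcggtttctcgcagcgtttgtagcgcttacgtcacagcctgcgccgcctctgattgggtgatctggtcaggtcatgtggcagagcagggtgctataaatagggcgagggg

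The p53 consensus was searched as a pair of 10-base half-sites with the central C and G of each half-site required, at most 1 mismatch in all and a spacer of 0 to 13 bases. The half-site pattern is its own reverse complement, so both strands were covered. The site in capitals, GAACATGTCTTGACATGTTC, has no spacer and 1 mismatch and lies 51 to 32 bases before the upstream start. The letters ACATGT, both of whose copies lie inside this site, occur 2 times in this window and at least 2 times in 0.329% of all 32851 windows. A further match, with a spacer of 12 bases and 0 mismatches, overlaps with the site in capitals. A full site with any of these spacers was present in 0.627% of the 300-base windows, and one with no spacer in 0.067%. The downstream window held 0 p53 matches and 2 GC boxes, and 32.7% of all windows held a GC box on either strand in the 250 bases before the start. GC content was 54.0% before the upstream *Cdkn1a* start, 64.8% before the downstream start and 69.6% before *Srsf3*. A match describes the letters of a window and was not tested as a binding site.

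The next question was which gene each region was assigned to. The table gave *Cdkn1a* 5 regions, at 14722 and 2830 bp upstream and 735, 3585 and 6917 bp downstream of its TSS. All 5 implied the same position, 29312747 on chromosome 17 of GRCm39, with a spread of 0 bp. The 3 regions of *Rab44* implied 29354031, again with a spread of 0 bp, and the single region of *Srsf3* implied 29251648. The implied TSS of *Srsf3* thus lay 61099 bp before that of *Cdkn1a*, against 61109 bp between the annotated starts in the RefSeq windows of GRCm38.p6. *Rab44* lay 41284 bp beyond *Cdkn1a*. The spread of 0 bp holds only if *Cdkn1a* and *Rab44* are read on the plus strand, and for *Srsf3*, with 1 region, the plus strand was taken from RefSeq.

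Of the 6 regions, 2 were assigned to *Cdkn1a* alone and 4 to a pair of genes. The far upstream region (29297825 to 29298224) was assigned to *Cdkn1a* and also to *Srsf3*, whose TSS was 46377 bp away, 3.15 times the distance to *Cdkn1a*. The regions at +3585 and +6917 were also assigned to *Rab44*, at 37699 and 34367 bp before its TSS, which is 10.5 and 4.97 times their distance to *Cdkn1a*. The sixth region (29379012 to 29379411) lay 25181 bp beyond the *Rab44* TSS, 66465 bp beyond that of *Cdkn1a*, and was shared with *Cpne5*, which encodes a copine, at 77560 bp. All 4 shared regions were therefore nearer to *Cdkn1a* or *Rab44* than to their other gene, and *Srsf3* had no region of its own. Over the whole table, 752 of 909 regions (82.7%) were assigned to 2 genes, and the farther gene lay a median of 2.91 times as far as the nearer one. Of the 1425 genes, 1234 (86.6%) had 1 region, and the 5 regions of *Cdkn1a* were the most listed for any gene, a number that 0.211% of the genes reached. In the RefSeq order of GRCm38.p6, the lncRNA genes *Gm41556* and *Trp53cor1* lie between *Srsf3* and *Cdkn1a*, and neither is in the deposited table. Of the 1388 table genes found in RefSeq by symbol, 1375 were protein coding and 4 lncRNA. The absence of an lncRNA gene thus tells little about p53 regions near it. Where the far upstream region lies relative to *Trp53cor1* could not be read from the sources used here. *Trp53cor1*, also called lincRNA-p21, is a p53-induced non-coding RNA.

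**Figure D1:**
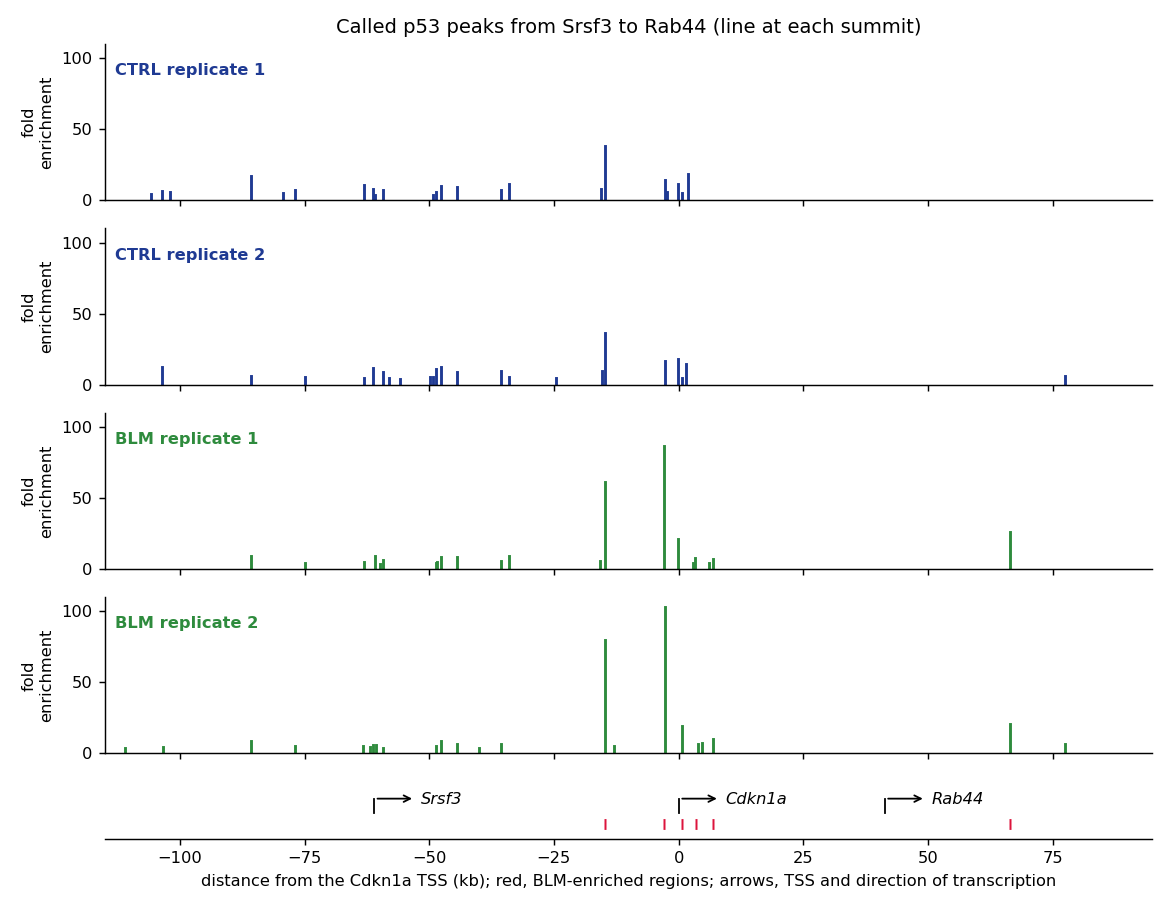
Fold enrichment of every called p53 peak (line at its summit) against distance from the implied *Cdkn1a* TSS in kb, 1 panel per library; red ticks are the 6 BLM-enriched regions and arrows the 3 implied TSS. The single highest peak of every library in this interval lies upstream of *Cdkn1a*, and the peak 25181 bp beyond the *Rab44* TSS was called in the BLM libraries only.

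The fold enrichment of a peak is its signal over the local background, as the authors' peak caller gave it. Because the 6 regions come from a list chosen for higher p53 signal in BLM, a higher value in BLM at these regions follows from that choice and is given as a description. With 2 libraries against 2, no exact two-sided permutation p can fall below 0.333, so no test was run. As a background, the peaks of all libraries were joined into 63268 regions, of which 26316 had a peak in all 4 libraries. The fold enrichment was higher in both BLM than in both CTRL libraries at 5.87% of the 26316, the highest peak was wider at 6.19%, and 2.03% of the 63268 had a peak in both BLM libraries and neither CTRL library. The 6 enriched regions fell in 6 joined regions. In 3 of them a peak was called in all 4 libraries, with fold enrichment and width higher in both BLM libraries at all 3, and the other 3 had a peak only in the BLM libraries.

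At the far upstream region p53 peaks were already high in the vehicle-treated organoids. Fold enrichment was 38.1 and 36.4 in CTRL replicates 1 and 2 and 61.2 and 80.1 in BLM replicates 1 and 2. The peak ranked 42 of 50430 and 55 of 48743 by fold enrichment in the CTRL lists and 44 of 39577 and 17 of 41451 in the BLM lists. It was thus among the highest peaks of every library, and the groups did not overlap. The means were 37.2 ± 1.22 in CTRL and 70.7 ± 13.4 in BLM (SD, n = 2 each), a ratio of 1.90, against a median ratio of 0.772 over the 26316 regions (5th to 95th percentile, 0.476 to 1.30). Among the 280 enriched regions with a peak in all 4 libraries this ratio ranked 180, below their median of 2.41, while the mean in BLM ranked 26 of the 914 enriched regions with a peak in both BLM libraries. The −log10 of the q-value was 124 and 102 in CTRL and 299 and 344 in BLM.

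The far peak was 703 and 555 bp wide in CTRL and 1322 and 1222 bp wide in BLM, so the BLM peaks were 2.02 times as wide on average. Each CTRL library held a second, lower peak just upstream, with its summit 15461 and 15432 bp before the TSS and a fold enrichment of 8.21 and 9.64. The BLM peaks began 15587 and 15641 bp before the TSS and so spanned both CTRL peaks. When all called bases were summed, 961 and 836 bp were covered in CTRL and 1322 and 1222 bp in BLM, a ratio of 1.42. Peaks near in fold enrichment rank give a further reference, although so close to the top of each list they are not matched closely in height. Of the 100 peaks nearest in fold enrichment in the same list, 59 and 79 were at least as wide as the far peak in CTRL, and 15 and 22 in BLM.

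The summit of the far peak hardly moved. It lay 14726 and 14717 bp before the TSS in CTRL and 14713 and 14726 bp in BLM, a range of 13 bp over 4 libraries, and the mean differed by 2.0 bp between the groups. In the 21425 joined regions with exactly 1 peak in each library, the summits of the 4 libraries spanned a median of 83 bp. The mean moved there by a median of 29 bp in either direction. The far region is not among them, since each CTRL library held 2 peaks in its joined region. They were also not matched to it in height, so how far summits move at peaks this high was not tested.

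The region 2830 bp upstream of *Cdkn1a* held the higher of the upstream peaks in BLM and the lower one in CTRL. Fold enrichment was 14.2 and 17.1 in CTRL and 86.8 and 103 in BLM. Both BLM libraries were far above both CTRL libraries, and the order of the near and far regions was reversed between the groups in every library. The mean rose from 15.6 ± 2.00 to 94.8 ± 11.4 (SD, n = 2 each), a ratio of 6.06, and the ratio between libraries of the same replicate number was 6.10 and 6.03. This ratio ranked 15 of the 26316 regions, and the far region ranked 224. Within the 280 enriched regions with a peak in every library it also ranked 15, and by the mean in BLM the near region ranked 4 of 914. The −log10 of the q-value was 38.2 and 36.7 in CTRL and 371 and 389 in BLM.

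By the width of its highest peak, the near region had the highest BLM to CTRL ratio of the 26316 joined regions, and ranked 2 of the 280 enriched regions, after the one at +735. It was 266 and 360 bp wide in CTRL and 2013 and 2296 bp in BLM, with means of 313 ± 66.5 and 2154.5 ± 200 bp (SD, n = 2 each) and a ratio of 6.88. Over all 26316 regions the median width ratio was 0.801 (5th to 95th percentile, 0.425 to 1.33). In BLM the peak reached from 3442 to 1430 bp before the TSS in replicate 1 and from 3722 to 1427 bp in replicate 2, so it covered more sequence on the side of the TSS than on the far side of its summit. CTRL replicate 1 had a second peak in this stretch, with a fold enrichment of 5.77 and its summit 2281 bp before the TSS, and CTRL replicate 2 had none. When all called bases were summed, 602 and 360 bp were covered in CTRL and 2013 and 2296 bp in BLM, a lower ratio of 4.48. Of the 100 peaks nearest in fold enrichment rank, only 3 and 2 were at least as wide in the BLM lists, where the median width was 840 and 792.5 bp. By fold enrichment the near peak ranked 9 and 2 in these lists, so nearly all of these 100 peaks were lower than it. In the CTRL lists 100 and 96 of 100 were at least as wide, so the site was narrow for its height in CTRL. Its width for its height in BLM could not be judged in this way.

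The summit of the near peak lay 2803 and 2824 bp before the TSS in CTRL and 2845 and 2828 bp in BLM. All 4 positions fell within 42 bp, and the BLM mean was 23 bp farther upstream (−23.0 bp). This shift is inside the 5th to 95th percentile of −94.5 to 97 bp over single-peak regions. The near region is not among those, since CTRL replicate 1 held 2 peaks there, and they were not matched to it in height. On GRCm38.p6 the centre of the p53 site shown in capitals lies 2832 bp before the downstream *Cdkn1a* start. Set against each other by distance alone, the summits were 28.5, 7.5, 13.5 and 3.5 bp from that centre in CTRL replicates 1 and 2 and BLM replicates 1 and 2. No position was converted between builds. The comparison holds only if the implied TSS is the downstream start and the interval has the same length in both builds. Neither was tested. The *Srsf3* to *Cdkn1a* interval was 61099 bp by implied TSS and 61109 bp on GRCm38.p6. An offset of that size may apply here too, so distances of a few bp cannot be read.

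**Figure D2:**
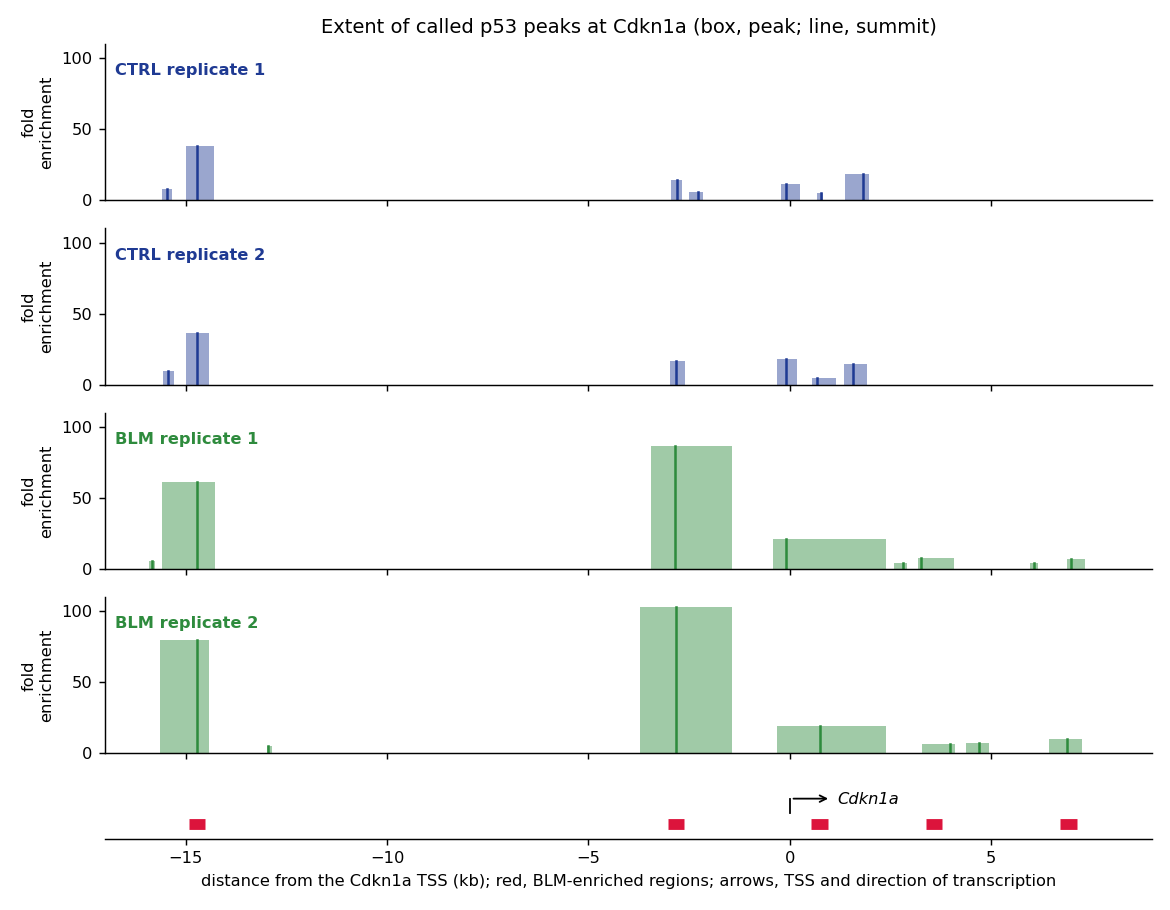
Called p53 peaks around *Cdkn1a* by library, with distance from the implied TSS in kb on the horizontal axis and fold enrichment on the vertical axis; boxes span each peak, lines mark summits and red bars the BLM-enriched regions. In BLM 1 wide peak took the place of several narrower CTRL peaks at the far region and the TSS, while the summits at −14722 and −2830 stayed within 13 and 42 bp.

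At the TSS itself, p53 peaks were much wider in BLM than in CTRL, while their heights lay close together. The peak over the TSS had a fold enrichment of 11.7 and 18.1 in CTRL and 21.1 and 19.4 in BLM, without overlap of the groups and a ratio of 1.36. It was 471 and 514 bp wide in CTRL and 2798 and 2704 bp in BLM, a ratio of 5.59. None of the 100 peaks nearest in fold enrichment was as wide in either BLM list (0 of 100 in both), where the median was 633.5 and 665.5 bp. The CTRL libraries held 3 separate peaks where each BLM library held 1. A small peak with its summit at +762 and +663 bp had a fold enrichment of 5.38 and 4.43, and a larger one at +1804 and +1560 bp had 18.4 and 14.6.

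For the whole joined stretch at the TSS (29312329 to 29315135), the change in width depended on the measure. Its highest peak gave a fold enrichment ratio of 1.11 and a width ratio of 4.89, which ranked 6 of the 26316 regions. Summed over all peaks, the called bases rose from 1241 and 1657 bp in CTRL to 2798 and 2704 bp in BLM, a ratio of 1.90. The enriched region at +735 overlapped only the small middle peak in CTRL, and in BLM the merged peak, which gave it a ratio of 4.13 in fold enrichment and 7.37 in width. The summit of the merged peak was at −103 bp in BLM replicate 1 and at +737 bp in BLM replicate 2, so the replicates did not share a summit. In both CTRL libraries the summit of the peak over the TSS was close to that of BLM replicate 1, at −104 and −100 bp.

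The remaining 2 regions of *Cdkn1a* had peaks in BLM only. At +3585 the fold enrichment was 7.92 and 6.52 in BLM replicates 1 and 2, the width 910 and 819 bp, and the summits, at +3254 and +3978 bp, were 724 bp apart. At +6917 it was 7.09 and 10.4, with widths of 452 and 822 bp and summits at +6975 and +6887 bp. By fold enrichment these peaks were at percentile 65.5 and 47.4 (+3585) and 56.5 and 82.4 (+6917) of the BLM lists. Few peaks of like height were as wide, namely 1 and 4 of 100 at +3585 and 16 and 4 of 100 at +6917. Of the 520 enriched regions with a peak in both BLM and neither CTRL library, 56.8% of the 915, they ranked 383 and 276 by their mean in BLM.

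**Figure D3:**
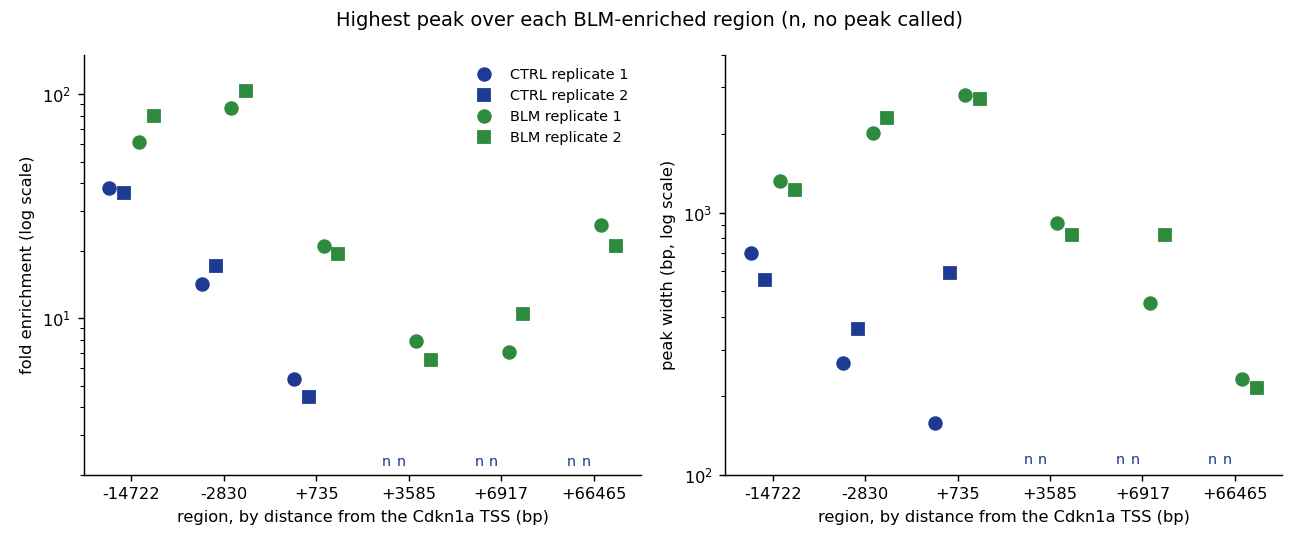
Fold enrichment (left) and width in bp (right) of the highest peak over each of the 6 BLM-enriched regions, both on log axes, with 1 point per library and n where no peak was called. The far region has the highest CTRL values, 38.1 and 36.4, the region at −2830 the highest BLM values, 86.8 and 103, and the region beyond *Rab44* (+66465 from *Cdkn1a*) the narrowest BLM peaks, 231 and 214 bp.

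The region beyond *Rab44* differed in shape from those at *Cdkn1a*. Its peak was called in neither CTRL library and reached 26.0 and 20.9 times the background in the BLM libraries, which ranked 243 and 560 in these lists. The −log10 of the q-value was 63.6 and 46.9, and the mean fold enrichment of 23.5 ± 3.63 (SD, n = 2) ranked 20 of the 520 regions called in BLM only, whose median was 8.98. The peak was narrow, at 231 and 214 bp, and all 100 peaks nearest in fold enrichment were at least as wide in both BLM lists. Its summits lay 25180 and 25176 bp beyond the *Rab44* TSS, 4 bp apart. No peak was called within 10 kb of the *Rab44* TSS in any library, and the nearest summit was 39480 bp before it in CTRL replicate 1 and 36244 bp beyond it in CTRL replicate 2. A missing peak in CTRL is one that did not pass the lists' threshold, and without read counts the level below it is unknown.

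At the *Srsf3* TSS a p53 peak was called in all 4 libraries and is not in the enriched list. By fold enrichment it was at percentile 56.0 and 79.9 in the lists of CTRL replicates 1 and 2 and 75.6 and 41.8 in those of BLM replicates 1 and 2. Fold enrichment of the peak over or next to the TSS was 7.93 and 11.9 in CTRL and 9.14 and 6.17 in BLM, and widths were 367 and 776 bp in CTRL and 687 and 437 bp in BLM. The groups overlapped in both measures. The BLM to CTRL ratio of fold enrichment was 0.774, near the median of 0.772 over all 26316 regions, and the width ratio was 0.983. The summits, at −198, −191, +315 and −130 bp, spread over more than the summits of either upstream *Cdkn1a* peak.

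The rest of the interval gave the reference for these changes. From 50 kb before *Srsf3* to 50 kb beyond *Rab44* (202383 bp), 35 joined regions were called, of which 11 had a peak in all 4 libraries. Of these, 8 were outside the enriched list, and fold enrichment was higher in both BLM libraries at 0 of the 8 and lower in both at 4. How many of all 26316 regions were lower in both was not counted, so the 4 cannot be set against a background share. The fold enrichment ratio of the 8 had a median of 0.75 (0.631 to 0.868), against 0.772 over all 26316. Their width ratio had a median of 0.778 (0.320 to 0.983), against 0.801. These 8 are regions that the authors did not select, so the absence of a higher value in BLM follows in part from that choice.

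The number of peaks within 50 kb of *Cdkn1a* changed little, with 13 and 14 in CTRL and 14 and 12 in BLM, while the bases they covered rose. Covered bases were 5217 and 5726 in CTRL and 9779 and 10218 in BLM, a ratio of means of 1.83, and the groups did not overlap. Around *Srsf3* the covered bases were fewer in BLM, 5221 and 5136, than in CTRL, 7037 and 6539, a ratio of 0.763, although this window holds the far region. Around *Rab44* they were 1843 and 2184 in CTRL and 6948 and 7614 in BLM, a ratio of 3.62, and the window shares the near upstream, TSS and downstream peaks of *Cdkn1a*. The windows overlap, so these sums are not independent. Each window also holds regions that the authors chose for higher p53 signal in BLM, so a rise follows at least in part from that choice. The same sums were not taken around other genes, so how often the groups fail to overlap there is unknown. In whole lists, 20.6 and 19.4 Mb were covered in CTRL and 14.0 and 14.5 Mb in BLM.

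**Figure D4:**
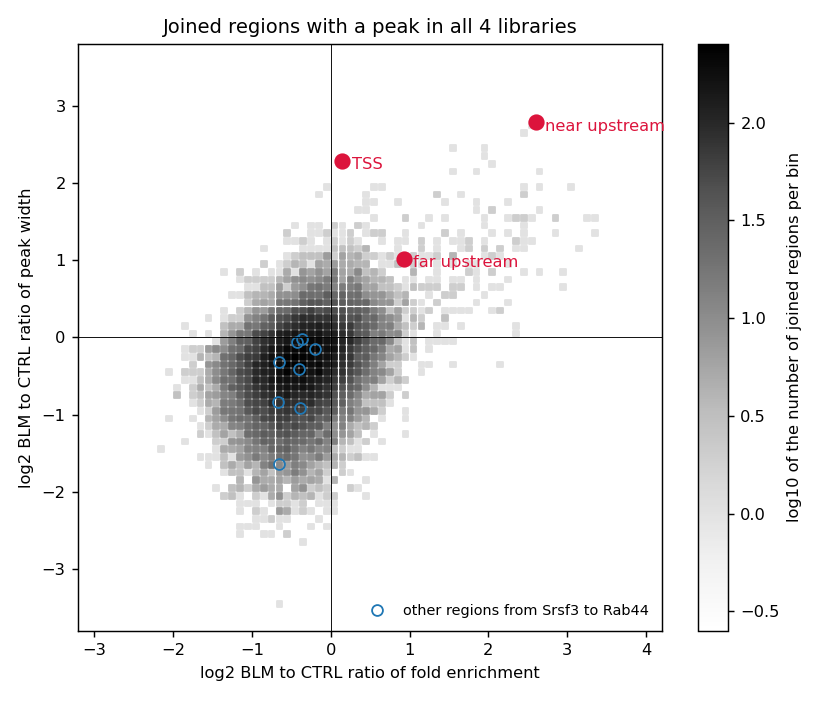
BLM to CTRL ratio of fold enrichment (horizontal, log2) against that of peak width (vertical, log2) for the 26316 joined regions with a peak in all 4 libraries, grey by their number per bin. Red points are the near upstream, far upstream and TSS stretches of *Cdkn1a* and open circles the 8 other regions from *Srsf3* to *Rab44*; by its highest peak the near region has the highest width ratio plotted, 6.88 (4.48 by all called bases), and the TSS stretch has 4.89 (1.90 by all called bases) at a fold enrichment ratio of 1.11.

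Other regions with like profiles were ranked by the Euclidean distance of log2 fold enrichment over the 4 libraries, among 445 genes with a region called in all of them. Nearest to the near upstream site was a region assigned to both *Fut10* and *Nrg1* (distance 0.461), whose peak reached 13.9 and 16.1 in CTRL and 84.9 and 75.2 in BLM. A region shared by *Pnrc1* and *Rngtt* (0.499) and one of *Tigit* (0.671) followed. Nearest to the far upstream site was a region shared by *Bcl2l1*, an inhibitor of apoptosis, and *Cox4i2* (0.189), with 43.3 and 36.8 in CTRL and 62.1 and 82.0 in BLM. It was followed by a region of *Elovl4* and *Sh3bgrl2* (0.332) and one of *3110035E14Rik* (0.638). These regions lay 20795 bp (*Sh3bgrl2*) to 612649 bp (*Fut10*) from the TSS of the genes named, with *Tigit* at 89924 bp and *Bcl2l1* at 38026 bp. Each list was cut at 5 genes, so a second gene of the last region may be missing. These likenesses rest on 4 libraries and are a description.

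Related genes were looked up in the same table, which holds 6.28% of the 21896 protein-coding genes in RefSeq by symbol, 0.818% with a region within 5 kb. These lists were drawn up with earlier results of these data known and were not tested. Of 7 other CDK inhibitor genes 1 had a region, *Cdkn1c*, which encodes p57, 104931 bp beyond its TSS, whose BLM peaks reached 13.5 and 9.42 and which had no CTRL peak. Of 14 p53 targets that act in cell cycle arrest or feedback on p53, 8 were in the table, 7 of them with a region no farther than 5 kb from the start. *Mdm2* encodes the ubiquitin ligase that restrains p53, and its highest region lay 6993 bp before its TSS, outside these 5 kb. That region resembled the far *Cdkn1a* region in that it was already high in CTRL, with 45.5 and 47.9 in CTRL and 85.1 and 88.9 in BLM. *Zmat3*, which encodes an RNA-binding zinc finger protein, had 22.4 and 22.1 in CTRL and 70.7 and 99.7 in BLM. *Trp53inp1*, which encodes a stress-induced nuclear protein that acts with p53, had 13.3 and 13.6 in CTRL and 30.1 and 37.5 in BLM. Among 10 other SR factor genes 1 had regions, *Srsf5*, the higher of them 1965 bp beyond its TSS with 6.96 and 10.5 in BLM and no CTRL peak, and of 2 other large Rab GTPase genes 0 were in the table.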

How the data were processed

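p53 ChIP-seq was measured in 4 libraries, which the submitters' labels place in groups and number within them. The authors deposited 1 peak list per library. For each peak the deposited columns were a fold enrichment (a ratio to the local background), the −log10 of its p-value and q-value, and a score that is 10 times the latter. The submitters' processing notes name Trim Galore 0.6.7, Bowtie2 2.5.1, MACS3 3.0.0b1, DiffBind 3.8.4 and edgeR 3.40.2, and the builds mm39 and mm10, without saying which step each served. The control used for calling and the rule that chose the enriched regions are not given in the sources used here. The authors' gene table was made with GREAT 4.0.4 with basal domains reaching 5000 bp before and 1000 bp past each start and extensions up to 1000000 bp, and names mm10 in its header. Its positions equal those of the enriched regions on GRCm39. No read counts were used, so the depth is unknown and counting intervals could not be formed. Every list ends just above a −log10 q of 2.

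Peaks that share at least 1 bp were joined across libraries in Python 3.11.15 (numpy 2.4.6, pandas 2.3.3, matplotlib 3.10.9), and the joining was tested on simulated lists. The highest peak by fold enrichment stood for each region and library. Positions count from 1. The RefSeq gene table of GRCm38.p6 served for names and order only, and promoter sequences are RefSeq's. The members, the related gene lists and the alternatives were chosen with earlier results of these data known. The genes named are the members, genes sharing their regions, the neighbours in RefSeq, the 5 genes nearest in profile to each upstream site, and members of the related lists. The neighbours were added after their values were seen. A withheld item is not reported here. Of the related lists, the examples named were likewise picked after their values were seen. Labels do not say whether replicates came from separate cultures, so the SDs may be technical in part.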

Additional observations from a re-analysis of the deposited data

How the results depend on the processing

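With 1 gene per region, *Cdkn1a* kept 5 regions, *Rab44* had 1 and *Srsf3* 0. The mean number of peaks around *Cdkn1a* was 4.5 in CTRL and 5.5 in BLM within 10 kb and 21.0 in both within 100 kb, as the window sets. Divided by each library's median over regions called in all 4 libraries, the fold enrichment ratio was 2.5 at the far and 7.98 at the near upstream region, and by −log10 q it was 2.84 and 10.2. The width ratio at the TSS was 2.03 when bases covered within 2 kb were taken and 6.12 when peaks less than 200 bp apart were joined. The BLM minus CTRL shift at the near region reversed from −23.0 bp by summit to 300.25 bp by the middle of the peak, since the BLM peaks reach farther towards the TSS.

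Leaving out each library in turn gave 13 to 14 peaks in CTRL and 12 to 14 in BLM. It gave fold enrichment ratios of 1.64 to 2.15 (far) and 5.54 to 6.66 (near), width ratios of 5.35 to 5.84 and summit shifts of −33.5 to −12.5 bp, each a value with no test. Taken within replicate numbers (replicate block), the values were 1.88, 6.06, 5.59 and −23.0 bp. Across 26316 regions the difference between replicates 2 and 1 in CTRL and in BLM correlated at 0.0072. This value was not shown to respond to a shared mouse and so cannot tell whether the libraries are paired. Whether equal numbers mark a shared mouse was not tested. Of 45 alternative values, 32 moved by less than the spread between replicates or, for counts, stayed within 1.5 times. Another 12 moved beyond these limits and 1 reversed. With 2 libraries per group, leaving 1 out shifts a group mean by less than its SD. The ratios and summit shifts so obtained could therefore hardly pass the limit. The unknown depth and 2 libraries per group limit all these values.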
